A study of Homo sapiens with 4 samples.

Results

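Of the 9401 SMD2 peaks in the deposited list, 566 carried the annotation class Intron together with the gene type lncRNA, and these intron peaks of long noncoding RNA genes are described here. They were assigned to 445 genes and covered 14520 bases. The cells were HEK293T, an established human embryonic kidney line that carries the SV40 large T antigen. PAR-CLIP (photoactivatable ribonucleoside-enhanced crosslinking and immunoprecipitation) was run on 3 SMD2 immunoprecipitated libraries, and 1 input library was sequenced beside them. All 4 libraries share one description in the labels' protocols, with 4-thiouridine (200 uM, 14 h), crosslinking at 365 nm, an anti-FLAG antibody and RNase T1 (10 units per ul, 8 min, 22 °C). The labels do not say whether the tagged SMD2 was expressed above its normal level or whether the input library passed every step. The deposited peaks, labelled as those of the SMD2 immunoprecipitation, have positions and labels only, with no value per library, no height and no strand, so no peak could be compared with the input or between replicates, and depth is unknown.

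Long noncoding RNAs are transcripts without a recognised coding sequence, and most are capped, spliced and polyadenylated like messenger RNAs, often with less efficient splicing and more nuclear retention. SMD2 (gene SNRPD2) is a member of the heptameric Sm ring that assembles on the U1, U2, U4 and U5 small nuclear RNAs. Introns are where these snRNPs meet the nascent transcript, and introns of noncoding transcripts also house other genes, among them microRNAs, snoRNAs and tRNAs.

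The gene type label was set against RefSeq (GRCh38.p14). By symbol and chromosome 277 of the 566 peaks (48.9%) matched a RefSeq gene, against 98.1% of the 4246 intron peaks of protein-coding genes. An Ensembl identifier stood in place of a symbol for 287 of the 566, and none of these could match by symbol. Of the 279 peaks with a symbol, 277 matched. By position, 96 of the 287 (33.4%) lay in a RefSeq lncRNA. Of the 277, 252 peaks matched a RefSeq lncRNA and 3 an antisense RNA. A further 20 peaks, in 11 genes such as RP9P, ZNF767P, PDE4DIPP4 and POLR2J4, matched what RefSeq calls a transcribed pseudogene. Another 2 peaks were assigned to RGS5, a symbol that RefSeq gives to a protein-coding gene. For those 22 peaks the RefSeq type of the symbol thus differed in name from the label. The match was by symbol, and whether both sources mean the same gene was not checked, so this need not be a disagreement.

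MicroRNAs are the small RNAs of these transcripts whose sequence the reference tables hold. RefSeq places 20 microRNA hairpins inside the spans of 13 of the genes, and 0 of the 20 were overlapped by an intron peak or had one within 1000 nt. The median distance from a hairpin to the nearest intron peak of its gene was 16541 nt. How often a peak would lie that near to a hairpin by chance was not computed, so the 0 cannot be read as avoidance. Genes without a RefSeq match, 239 of the 445, could not enter. MIR374B and MIR374C share a place on opposite strands, as do MIR5583-1 and MIR5583-2, so the 20 are not all separate places. Mature sequences from RefSeq (GRCh38.p14), 5′ to 3′ with the seed (bases 2 to 8) in capitals, are shown for selected hairpins, which were picked as the one nearest to any peak, a pair in FTX and members of well-known seed families.
hsa-let-7d-5p: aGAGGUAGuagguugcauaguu
hsa-let-7c-5p: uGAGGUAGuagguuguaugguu
hsa-miR-15a-5p: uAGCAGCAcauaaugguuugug
hsa-miR-16-5p: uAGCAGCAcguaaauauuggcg
hsa-miR-421: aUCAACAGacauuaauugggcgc
hsa-miR-374b-5p: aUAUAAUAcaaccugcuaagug

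Of those shown, let-7d and let-7c share the seed GAGGUAG, and miR-15a and miR-16 share AGCAGCA. MIRLET7D lay 2281 nt from a peak of LINC02603, on the strand opposite to that gene. MIRLET7C, in MIR99AHG, lay 17812 nt from the nearest peak. DLEU2, the host of MIR15A and MIR16-1 in a region often deleted in lymphocytic leukaemia, had its nearest peak 7196 nt from MIR16-1. In FTX, a peak lay 6283 nt from MIR374B and 6440 nt from MIR421. The peaks of these host genes shown here all lay more than 1000 nt from the hairpins. Sequences of the peaks themselves are not used here, since no genome of the build was at hand.

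The peaks were narrow. The median width stood at 22 nt (quartiles 18 and 27.75 nt), against 23 nt (20 to 29 nt) for intron peaks of protein-coding genes. Widths ran from 1 to 471 nt, with 17 peaks under 10 nt. Peaks of 50 nt or more made up 3.18% of the 566 (18 peaks, Wilson 95% interval 2.02 to 4.97%) and 1.58% of the coding-gene intron peaks (67 of 4246, 1.24 to 2.00%; two-sided Fisher exact test, adjusted p = 0.0119). Peaks of lncRNA genes outside introns, intergenic ones left out, had a share of 14.0% (50 of 358, 10.8 to 17.9%), which was not tested against the members. Of the 18 wide intron peaks of lncRNA genes, 8 lay on tRNA or 45S rRNA genes. With all peaks on tRNA or 45S rRNA genes left out of both intron classes, the shares were 1.83% and 1.56% (two-sided Fisher exact test, adjusted p = 0.586), a difference that did not pass. The widest peak elsewhere, 57 nt, was assigned to LINC01278. Intervals cover counting error only. Here and below, p-values were adjusted over 8 comparisons, and they hold for this list alone: its peaks are not replicates, and the variation from library to library is not in it.

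**Figure D1:**
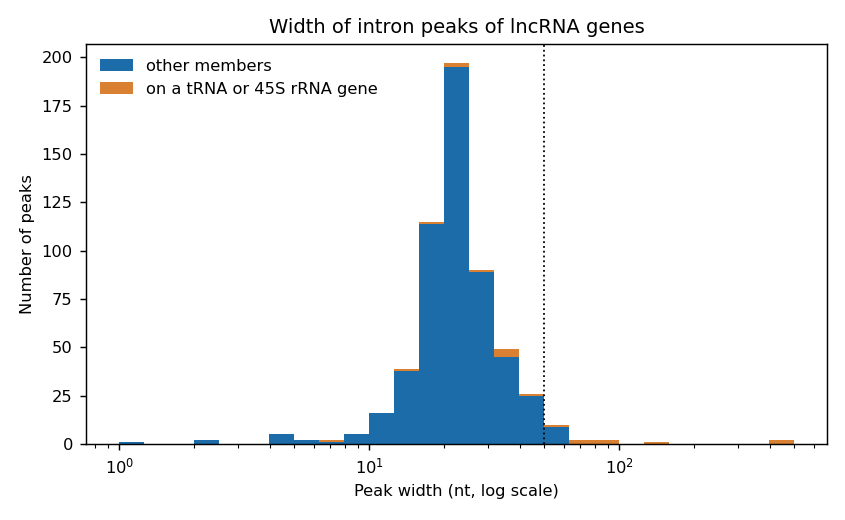
Number of intron peaks of lncRNA genes (y axis) by peak width in nt (x axis, log scale), stacked by whether the peak lay on a tRNA or 45S rRNA gene (orange) or not (blue); the dotted line marks 50 nt. Most peaks lie near the median of 22 nt, and all 3 peaks of at least 100 nt lie on 45S rRNA genes.

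Peaks were spread thinly over the genes. Of the 445 genes, 377 (84.7%) had 1 intron peak, 45 had 2, 12 had 3, and 11 had 4 or more. A peak outside introns was assigned to 41 of the genes (9.21%) as well. Of the 566 peaks, 37.6% (33.7 to 41.7%) lay in a gene with another peak, intergenic ones not counted, against 61.6% (60.1 to 63.0%) of intron peaks of coding genes (two-sided Fisher exact test, adjusted p = 1.76e-26). All peaks of a gene share this trait, so a gene with many peaks is counted many times in that test and its intervals. With 1 peak per gene, 20.7% of the lncRNA genes (92 of 445) and 43.7% of the coding genes (1267 of 2899) had more than 1 peak (two-sided Fisher exact test, adjusted p = 5.07e-21). Gene length and RNA abundance were not matched in this comparison.

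**Figure D2:**
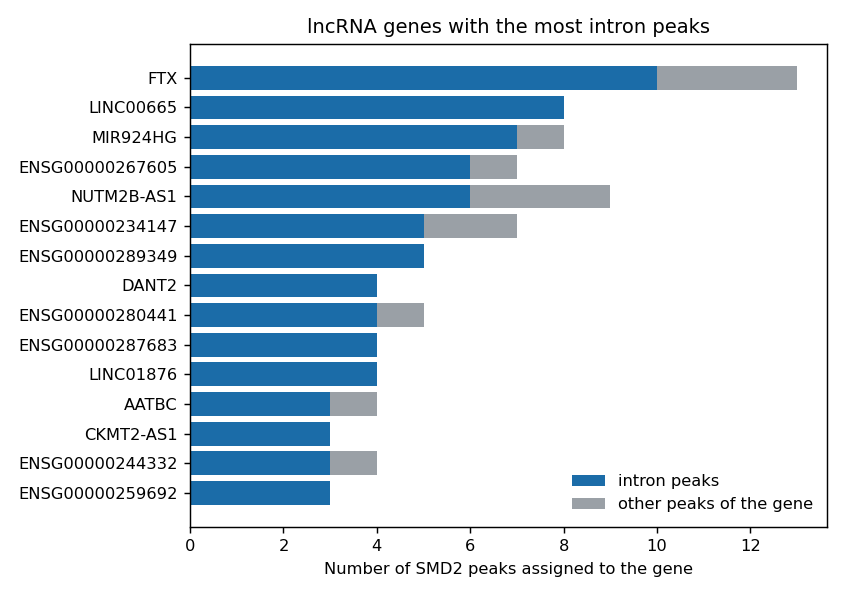
Number of peaks (x axis) assigned to each of the 15 lncRNA genes with the most intron peaks, where the last 4 are the first by symbol of 12 genes tied at 3 peaks; blue bars count intron peaks and grey bars the gene's other peaks outside the intergenic class. FTX leads with 10 intron peaks of 13, and LINC00665 follows with 8 of 8.

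FTX, a transcript of the X-inactivation centre that takes part in the control of XIST, had the most intron peaks, 10 of its 13 peaks, spread over 262 kb. In genome order their widths were 21, 5, 23, 25, 28, 29, 23, 24, 5 and 22 nt. Of the 10, 7 lay inside the RefSeq span of FTX, which runs from 74028136 to 74293574 on the minus strand of chromosome X. The other 3 lay between 73972763 and 73976836, inside the span of JPX, a neighbouring lncRNA on the plus strand that is known as an activator of XIST. RefSeq and the authors' assignment thus name different genes for these 3 peaks. Abutting peaks occurred at 2 places, at 73972763 to 73972788 and at 74234875 to 74234901. One peak, at 74129382 to 74129406, also lay on the pseudogene DDX3P1.

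LINC00665, an intergenic lncRNA studied mostly in cancer cells, had 8 peaks, all intronic and all on the same transcript. None lay inside its RefSeq span (chromosome 19, 36313061 to 36331753); all 8 lay between 36270730 and 36301144, inside the RefSeq lncRNA CYKILR. ENSG00000267605, an unnamed gene also on chromosome 19, had 6 intron peaks between 37272424 and 37300241. The peaks of both genes recurred at like spacings. From start to start, 3 of the 7 gaps in LINC00665 were 2524, 2552 and 2519 nt, and 3 of the 5 gaps in ENSG00000267605 were 2537, 2523 and 2528 nt. A gap of 3520 nt in LINC00665 was matched by one of 3511 nt in ENSG00000267605, and LINC00665 itself held gaps of 6621 and 6610 nt. The last gap of LINC00665, 6048 nt, equals the distance of 6.048 kb from the first to the third peak of ENSG00000267605. Over all 121 gaps between neighbouring intron peaks of an lncRNA gene, only these 6 fell between 2500 and 2600 nt. Among coding genes 7 of 1347 gaps (0.520%) did. The window and the other matching distances were chosen after the gaps were seen, with no limit for a match set beforehand. The contrast with coding genes uses that same window, so it is a description only. The sequence at these positions was not examined.

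**Figure D3:**
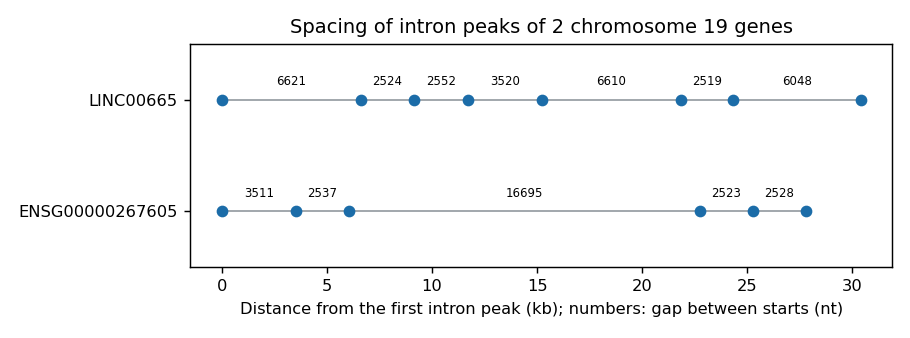
Position of each intron peak (blue points) of LINC00665 and ENSG00000267605, as the distance in kb from the gene's first peak (x axis); the numbers give the gap between neighbouring starts in nt. Gaps of 2519 to 2552 nt occur 3 times in each gene.

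MIR924HG, the host gene of miR-924 on chromosome 18, had 7 intron peaks of 4 to 41 nt over 471 kb, of which 6 lay inside its RefSeq span. NUTM2B-AS1, a transcript antisense to NUTM2B, had 6 intron peaks of 4 to 32 nt over 152 kb. Of these, 5 lay inside its RefSeq span and 1 of the 5 inside NUTM2B, on the opposite strand. DANT2, transcribed at the DXZ4 macrosatellite of the X chromosome, had 4 peaks, 2 of them inside its span and 1 of these also inside DANT1. LINC01876 had 4 peaks, all inside its span of 234 kb. Median widths in these 4 genes ran from 18.5 to 28 nt, and 1 pair of NUTM2B-AS1 peaks, at 79727207 to 79727242, abutted.

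Several other unnamed genes among the 15 with the most intron peaks had theirs over long distances. ENSG00000234147 on chromosome 6 had 5 intron peaks of 8 to 43 nt over 239.8 kb, each on a different transcript. ENSG00000289349 on chromosome 2 had 5 of 20 to 36 nt over 109 kb, all inside the RefSeq lncRNA LOC107985962. ENSG00000287683, also on chromosome 6, had 4 of 21 to 35 nt over 102 kb, all inside LOC105377899. ENSG00000259692 on chromosome 15 had 3 of 17 to 23 nt over 92.5 kb. The intron peaks of ENSG00000280441 and ENSG00000244332, also among the 15, reached over 44.5 and 6.03 kb and are described below.

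In other genes the peaks stood close together. AATBC had its 3 intron peaks within 0.431 kb on chromosome 21 (43807383 to 43807813). RP9P, a transcribed pseudogene in RefSeq, had 3 within 1.13 kb. Of all members, 11 neighbouring pairs in a gene lay within 100 nt of each other, and 9 of the 11 abutted without a gap, as in POLR2J4, where a 1-nt peak at 43984433 was followed by one of 24 nt. Another peak of the same gene lay within 1000 nt for 8.13% of the members (46 of 566, 6.15 to 10.7%) and for 5.56% of coding-gene intron peaks (236 of 4246, 4.91 to 6.29%; two-sided Fisher exact test, adjusted p = 0.0172). With peaks within 50 nt merged the shares were 4.86% and 3.92% (exact adjusted p = 0.301), and without peaks on tRNA or 45S rRNA genes they were 6.95% and 5.45% (exact adjusted p = 0.166), so neither difference passed.

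Many of the genes had no name beyond an Ensembl identifier. Such placeholder names held 287 of the 566 peaks (50.7%) in 237 genes. Intergenic LINC genes held 91 peaks in 73 genes, antisense genes 77 in 66, divergent transcripts 23 in 21, small RNA host genes 21 in 10, and intronic or overlapping transcripts 2 in 2. The remaining 65 peaks lay in 36 genes with other names, FTX among them. Median widths were alike, from 21 to 23 nt. Among divergent transcripts EOLA2-DT and EPM2A-DT had 2 intron peaks each and ANKHD1-DT had 1. The third LINC gene by count, LINC02259 on chromosome 15, had 3 within 9.73 kb, all inside its RefSeq span. Among host genes MIR4435-2HG had 3 and MIR4713HG had 2.

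Well-known lncRNAs with an intron peak were counted by list. At the X-inactivation centre 2 of 4 genes did, FTX with 10 and XIST with 1, while XIST had 6 peaks outside introns. These counts follow the authors' assignment, by which JPX, also on this list, had 0. By position, 3 of the 10 FTX peaks lay inside the RefSeq span of JPX. Of 28 lncRNAs named in cancer studies 4 had an intron peak. DLEU1 and DLEU2 had 2 each and CASC19 and SOX2-OT, which overlaps the pluripotency gene SOX2, had 1 each. Of 6 nuclear lncRNAs 0 did. NEAT1, the scaffold of paraspeckles and 1 of these 6, had 1 peak outside introns. In the cancer list GAS5, a snoRNA host without an intron peak, had the most peaks outside introns, 3. Neither RNA abundance nor the intron length of the listed genes was measured, so a count of 0 cannot be read as absence of binding. The share of all lncRNA genes with an intron peak was not set beside these counts.

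The RefSeq gene under each peak differed widely. Counted once each, 151 peaks (26.7%) lay in no RefSeq gene, 148 (26.1%) in the span of their assigned gene with no other protein-coding gene there (the 2 RGS5 peaks included), 131 (23.1%) in the span of a protein-coding gene other than the assigned one and 95 (16.8%) in another RefSeq lncRNA. The other 41 lay on pseudogenes (21), tRNA genes (14), 45S ribosomal RNA genes (5) or another kind of gene (1). Of peaks with a placeholder name, 34.5% lay in no RefSeq gene, against 18.6% of peaks of named genes; this difference was not tested. Where the assigned gene was in RefSeq, 67.9% of 277 peaks lay inside its span (62.2 to 73.1%), against 98.9% of 4165 coding-gene intron peaks (98.5 to 99.2%; two-sided Fisher exact test, adjusted p = 1.41e-77). The 89 peaks outside lay in 68 genes, at a median of 30623 nt from the span (interquartile range 11312 to 66271 nt). The authors' transcripts carry Ensembl identifiers, so this comparison also measures how far the annotations differ for each class of gene.

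**Figure D4:**
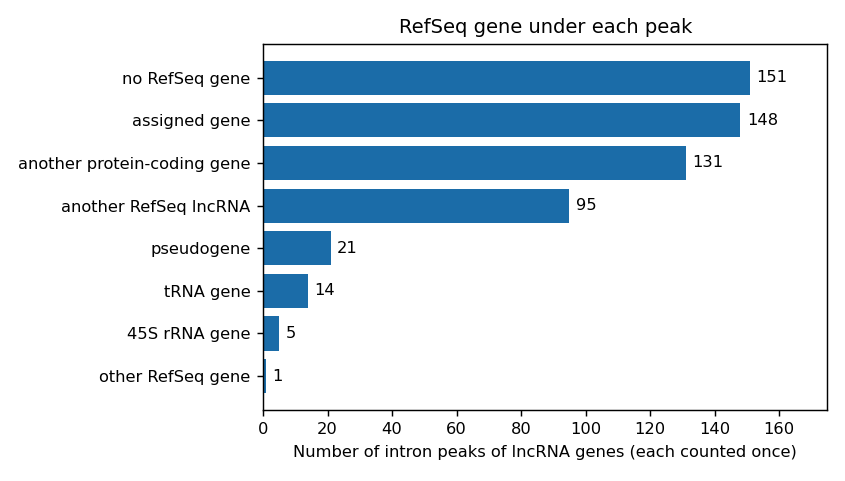
Number of intron peaks of lncRNA genes (x axis) by the RefSeq gene under the peak, with each of the 566 peaks counted once, in the order tRNA gene, 45S rRNA gene, protein-coding gene other than the assigned one, assigned gene, other lncRNA, pseudogene. The 3 largest groups, no RefSeq gene, the assigned gene and other protein-coding genes, hold 151, 148 and 131 peaks.

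Inside protein-coding genes, an intron of the lncRNA and the body of a coding gene share the same bases, and without a strand their RNAs cannot be told apart. Such overlap, with a coding gene other than the assigned one (so without the 2 RGS5 peaks), was found for 131 of 566 intron peaks (23.1%, 19.9 to 26.8%) and for 145 of the 358 peaks of lncRNA genes in other classes, intergenic ones left out (40.5%, 35.5 to 45.7%; two-sided Fisher exact test, adjusted p = 4.43e-08). The share was 48.1% for antisense genes (37.3 to 59.0%), which are named for such an overlap, and 7.69% for LINC genes (3.78 to 15.0%). The 131 peaks lay in 128 coding genes. A peak of its own was assigned to 38 of these coding genes, and 42 of the 131 peaks lay in them.

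ENSG00000244332 had all 3 of its intron peaks, of 26, 55 and 29 nt, inside HELLS, a chromatin remodelling helicase gene that was itself assigned 2 peaks. CKMT2-AS1 had 2 peaks in CKMT2, a mitochondrial creatine kinase gene, and 1 in RASGRF2, a Ras exchange factor gene. Both coding genes lie on the strand opposite to CKMT2-AS1, and neither had a peak of its own. KIZ-AS1 had 2 abutting peaks in KIZ, which codes for a centrosomal protein. EPM2A-DT had 2 in SHPRH, a ubiquitin ligase gene of DNA damage tolerance with 1 peak of its own. MIR4435-2HG had 1 of its 3 peaks in BCL2L11, the gene of the pro-apoptotic protein BIM. For 28 of the 131 peaks the lncRNA and every coding gene at the peak lay on opposite strands. For 6 they lay on the same strand, among them the peak of MAGI1-IT1 in MAGI1. For 2 peaks, both of SNED1-AS1, the coding genes at the peak lay on both strands, and for 95 a strand was not known.

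Peaks on small RNA genes and pseudogenes were more frequent than in coding-gene introns. They made up 9.89% of the 566 peaks (56 peaks, 7.70 to 12.6%) and 0.589% of the 4246 (25, 0.399 to 0.868%; two-sided Fisher exact test, adjusted p = 9.47e-34). Without pseudogenes of the same name as the assigned gene, the shares were 7.60% and 0.542%. Genes with only an Ensembl identifier share no name with a pseudogene, so this step could not leave out any of theirs. Peaks on pseudogenes numbered 45 and on tRNA genes 14, with some on both. All small RNA genes hit were tRNA genes. Among coding-gene introns 7 peaks lay on a tRNA gene, a share of 0.165% (0.0799 to 0.340%) against 2.47% (1.48 to 4.11%; exact adjusted p = 8.84e-09, a comparison added after the list was seen). Peaks of lncRNA genes outside introns had a share of 18.7% on a small RNA gene or pseudogene (67 of 358, 15.0 to 23.1%) and of 4.19% on a tRNA gene (2.56 to 6.80%). Neither lay below the members' share, and this comparison was not tested. How often each class of intron contains such genes was not measured, so a preference of SMD2 cannot be read from these shares.

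**Figure D5:**
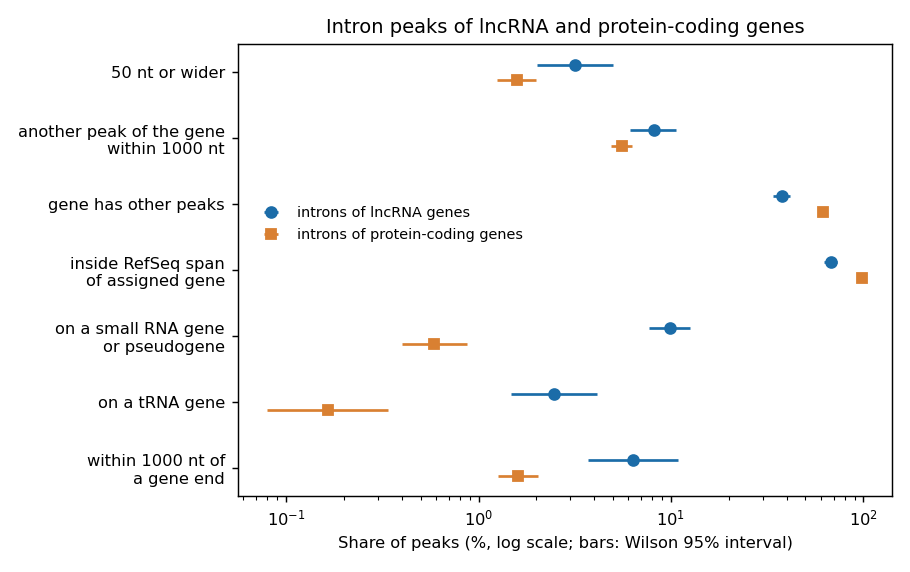
Share of peaks in percent (x axis, log scale) with each feature, for intron peaks of lncRNA genes (blue circles) and of protein-coding genes (orange squares), with Wilson 95% intervals as bars. The intervals lie apart for 6 of the 7 features, all but nearby peaks, and the shares on tRNA genes are 2.47% and 0.165%.

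Of the 45 peaks on pseudogenes, 29 lay on one with another name than the assigned gene, and 20 of the 29 on a pseudogene that RefSeq lists as transcribed. For genes with only an Ensembl identifier, whether both names mean the same gene was not checked. The genes named next were chosen after their values were seen. ENSG00000290993 had 2 peaks on RPL32P3, a copy of a ribosomal protein gene, and ENSG00000290928 had 2 on SUZ12P1, a copy of the Polycomb gene SUZ12. ENSG00000291015 had 2 on TPTEP2. LINC02754 had 1 on SNRPCP12, named as a copy of the gene for the U1-specific protein U1-C. The remaining pseudogenes had 1 peak each. Where a copy resembles its parent gene, the reads of both may not be told apart.

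The 14 tRNA peaks covered 13 tRNA genes inside 11 lncRNA genes, 10 of them with placeholder names. Most lay on chromosome 1 (7 peaks) and in the tRNA-rich region of chromosome 6 (5 peaks), with 1 each on chromosomes 11 and 16. By isotype, 4 lay on valine, 3 on alanine, 3 on leucine, 2 on glycine, 1 on proline and 1 on serine tRNA genes. Their median width was 38 nt (19 to 92 nt), and 5 were 50 nt or wider. In 4 cases the peak spanned the whole tRNA gene. The 92-nt peak in ENSG00000287264 covered TRV-TAC1-1 (73 nt) with 18 nt before and 1 nt after it in genome order. The 80-nt peak in ENSG00000273112 covered TRG-TCC2-6 with 5 and 3 nt on its sides. The 78-nt peak in ENSG00000262521 covered TRP-AGG2-7, and the 74-nt peak in ENSG00000290790 covered TRV-CAC1-7. All 3 intron peaks of PDE4DIPP4 lay on tRNA genes, 1 on TRG-CCC6-1 and an abutting pair on TRV-CAC5-1. Reads of near-identical tRNA copies cannot be assigned to 1 of them.

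On chromosome 21, 5 members lay in 45S ribosomal RNA units, which encode the precursor of the 18S, 5.8S and 28S rRNAs. ENSG00000280441 had 4 of them, with widths of 471, 15, 157 and 403 nt. The first 3 lay in RNA45SN3 at positions 2149 to 2619, 2845 to 2859 and 3281 to 3437 of the unit, before the start of the 18S gene. The 403-nt peak lay in RNA45SN1, at positions 2094 to 2496, also before its 18S gene. The remaining member, a 7-nt peak of ENSG00000278996, lay in RNA45SN2 between the 5.8S and 28S genes. None of the 5 overlapped a mature rRNA gene; all lay in transcribed spacers. Copies of the unit are near-identical, so these peaks may come from any copy. Chromosome 21 held 24 of the 566 members (4.24%) against 0.612% of coding-gene intron peaks, and 8 of the 24 lay in its first 10 Mb. Chromosome 19 held 5.65% against 2.94% and chromosome X 5.65% against 3.11%. FTX supplied 10 of the 32 members on X, and LINC00665 and ENSG00000267605 supplied 8 and 6 of the 32 on chromosome 19. These shares by chromosome were not tested.

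Within genes, members lay near an end more often than coding-gene intron peaks. Among peaks inside the span of their gene, 6.38% of 188 lay within 1000 nt of either end (12 peaks, 3.69 to 10.8%), against 1.60% of 4118 (66 peaks, 1.26 to 2.03%; two-sided Fisher exact test, adjusted p = 1.55e-04). The nearest, in PITPNA-AS1, lay 235 nt from an end, but that gene spans only 1.18 kb, so any peak inside it would count. LINC03010 followed at 291 nt and LINC00305 at 335 nt. At 5000 nt the shares were 26.1% and 15.0%. Where the strand was known, the first of 5 equal bins of the gene held 38 of 126 members (30.2%, 22.8 to 38.7%), against 21.3% of 3526 coding-gene intron peaks (20.0 to 22.7%), which was not tested. The other bins held 20 to 26 members each. The median distance to the gene start was 26.1 kb for members and 37.0 kb for coding-gene peaks, in genes with a median span per peak of 78.6 and 91.9 kb. Gene length was therefore not equal between the classes and was not matched.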

How the data were processed

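PAR-CLIP libraries of HEK293T cells, 3 SMD2 immunoprecipitations and 1 input, were grouped by sample title. Per the submitters' processing notes, the authors used Trim Galore 0.6.10, Bowtie2 2.5.1 and hg38; for the peak caller, threshold, use of input, pooling and annotation the answer is not given in the sources used here. The deposited list holds positions and labels only; starts, counted from 0, were converted to 1-based. Peaks were joined to RefSeq spans (GRCh38.p14) by symbol and chromosome, and overlaps needed at least 1 nt. Strands came from RefSeq promoter entries. Shares have Wilson 95% intervals. Comparisons used two-sided Fisher exact tests with Benjamini-Hochberg adjustment over 8. The Fisher test without the adjustment was tried on simulated independent counts. Those counts do not hold the grouping of peaks within genes, so they do not check the tests for this list. Named are the 15 genes with the most intron peaks (ties by symbol), the 3 leading genes of each name class, members of the known-lncRNA lists, the widest peaks and close pairs; other names were chosen after their values were seen. Members, lists and tests were chosen with earlier results of these data known. Computations used Python 3.11.15, pandas 2.3.3, scipy 1.17.1 and statsmodels 0.14.6.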

Additional observations from a re-analysis of the deposited data

How the results depend on the processing

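Of 56 values under an alternative, for 8 results, 46 stayed on the same side of the threshold in the same direction, and 0 reversed. Some of the 46 could not change. The share near a gene end rested on the same peaks inside RefSeq spans only and for named genes only. The share inside the span of the assigned gene was also unchanged for named genes only. Leaving out entries out of the sorted order removed 0 members and 5 coding-gene intron peaks. The 46 are therefore not all separate checks. The 10 of the 56 that no longer passed all concerned width or nearby peaks. The share of members at least 50 nt wide, 3.18%, was 3.60% with 1 peak per gene, 2.96% without the 10 genes with the most peaks in each class, 2.13% inside RefSeq spans only, 1.79% for named genes only and 1.83% without tRNA and 45S rRNA genes, an alternative chosen after seeing the data. The share with another peak within 1000 nt, 8.13%, was 4.86% with merged peaks, 4.04% with 1 peak per gene, 6.90% without the 10 leading genes and 6.95% without tRNA and 45S rRNA genes; within 5000 nt it was 15.7%, against 15.3% for coding genes. The share with another peak within 1000 nt still passed at 11.2% inside RefSeq spans only and at 9.68% for named genes only. The coding-gene shares there were 5.37% and 5.35% (two-sided Fisher exact test, adjusted p = 0.00341 and 0.00594). The cause was not tested beyond these omissions. No paired analysis was possible because the list has no value per library, which also prevented leaving out a replicate.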
